A study of Mus musculus with 23 samples.

Results

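The cortex of mice carrying arginine in place of glycine 34 of histone H3.3 (G34R) was compared directly with the cortex of mice carrying valine at the same residue (G34V), at 10 weeks of age. The members were chosen by genotype and age alone, and are 6 of the 23 libraries of the series, 3 G34R animals and 3 G34V animals. Both groups were male, and each animal had 1 edited and 1 unedited copy of H3f3a per the labels, so wild-type H3.3 remained in both. The same fit held 6 wild-type (WT) males, 1 of them sequenced as 2 libraries that were summed, and 2 heterozygous animals with tryptophan at the residue (G34W, 1 male and 1 female). At postnatal day 7, 4 G34R and 4 WT animals were also sequenced, and no G34V animal. RNA came from pulverised cortex, so each value averages over all cells of the piece, and fewer cells of a type and less RNA per cell cannot be told apart. The labels give neither the strain background nor the litters, so that the p-values below measure the spread between separate animals whose relatedness is not given in the sources used here. Total counts were 35198575 to 78250476 in the G34R libraries and 39777831 to 49223317 in the G34V libraries.

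H3.3 is the histone H3 variant that is deposited outside DNA replication, in neurons throughout life. Glycine 34 lies in the amino-terminal tail close to lysine 36, whose methylation is read by DNA methyltransferase 3A. Arginine is large and positively charged, and valine is small and uncharged. Astrocytes respond to injury by raising intermediate filament and acute-phase genes, and microglia, the resident macrophages of the brain, respond by raising lysosomal, complement and lipid-handling genes. These responses are the background against which the gene lists were drawn up.

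The edited codon is shown with its neighbours from the GENCODE M21 transcripts of GRCm38, with codon 34 in capitals (residues counted without the initiator methionine). The first line is H3f3a, chr1:180811810-180811836 on the minus strand, in the coding part of an exon, and the second is the unedited H3f3b, chr11:116023893-116023919 on the minus strand, which encodes the same residue at this position.
H3f3a: ccctctactggaGGGgtgaagaaacct
H3f3b: ccctctaccggcGGGgtgaagaagcct
Both genes carry the same glycine codon here, and only H3f3a was edited. Reads per gene do not tell the edited copy from the unedited one.

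H3f3a (GRCm38 chromosome 1, 180800832 to 180813943) was measured at 42.7, 45.3 and 41.4 CPM (counts scaled by the size of the library) in G34R replicates 1 to 3 and at 39.8, 43.5 and 41.3 CPM in G34V replicates 1 to 3. The groups overlapped, and the log2 difference was 0.05 (95% interval -0.13 to 0.23, adjusted p = 0.869 by edgeR's quasi-likelihood test, with p-values adjusted by Benjamini-Hochberg here and throughout). H3f3b was at 131, 134 and 134 CPM in G34R and at 103, 110 and 113 CPM in G34V. Its ranges did not overlap, but it did not pass the test (log2 difference 0.29, 95% interval 0.13 to 0.45, adjusted p = 0.152). These counts do not check which substitution an animal carried.

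Of 21283 genes tested, 49 (0.23%) passed an adjusted p of 0.05 between G34R and G34V, and 2313 had an unadjusted p under 0.05. Of these, 37 were higher in G34R (0.174% of the genes tested) and 12 were lower (0.0564%). The differences were mostly small: their median size was 0.60 on the log2 scale, and 9 were 2-fold or more. In all 49 the ranges of the 3 G34R and 3 G34V animals did not overlap, as in 18.6% of all genes tested. For comparison, 5.59% of the genes passed the test between G34R and WT (2.94% higher and 2.65% lower in G34R), 4.25% between G34V and WT (1.57% higher and 2.68% lower in G34V) and 1.63% between G34W and WT. Ranges were apart in 12.1% of the genes between G34R and WT and in 10.1% between G34V and WT.

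Each of the 49 genes was placed by its own tests against WT. A difference was called one of degree only when both substitutions differed from WT in the same direction, which held for 17 genes. Another 14 genes differed from WT in G34R alone and 12 in G34V alone. In 3 genes the substitutions moved in opposite directions from WT, and 3 genes passed neither test against WT. Passing in one comparison and missing in the other is not by itself a difference between the substitutions, but all 49 genes passed the direct test between them. The comparisons with WT share their 6 WT animals.

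**Figure D1:**
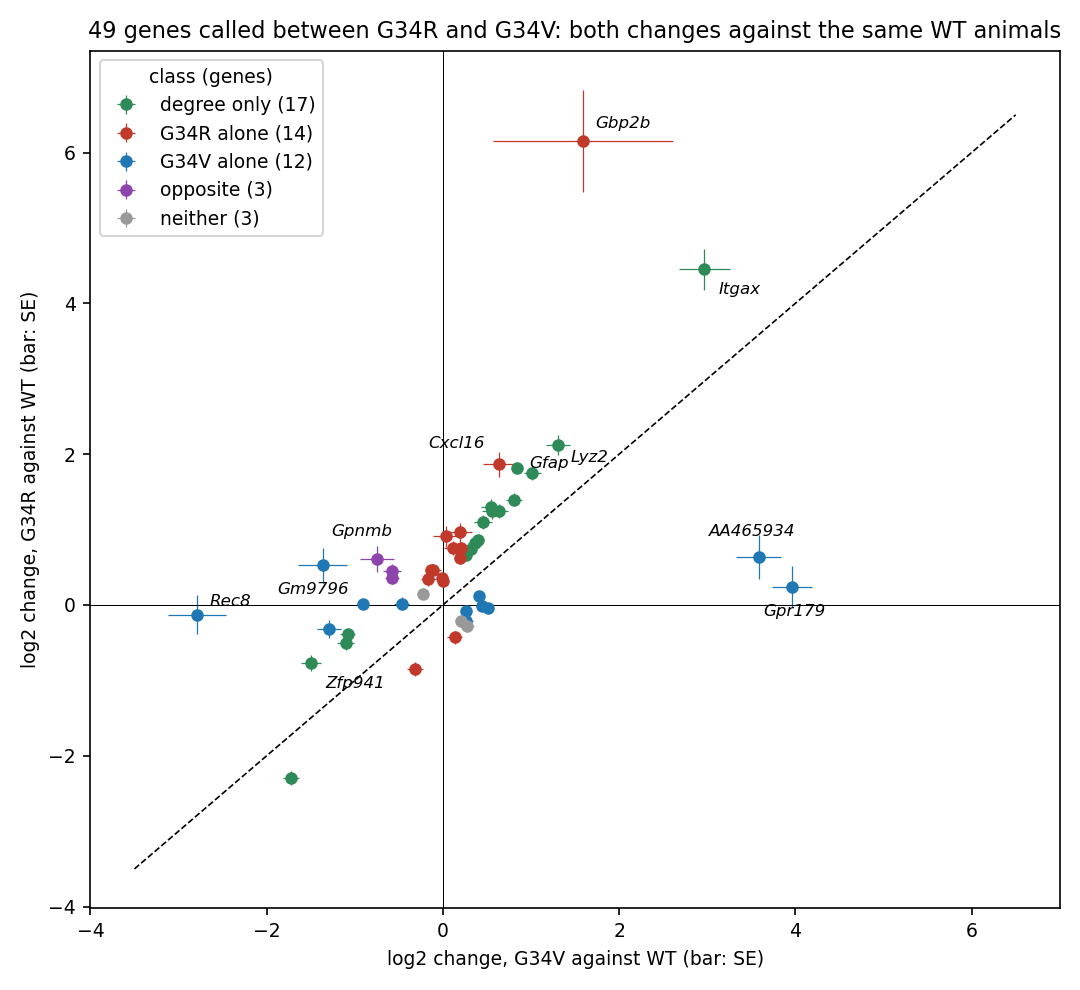
Log2 change against WT of the 49 called genes, G34V on the horizontal and G34R on the vertical axis, with standard errors as bars and the 5 classes as colours; both axes use the same 6 WT animals. The genes of degree only lie below 0 on both axes or above 0 on both, and genes on the dashed line would be changed equally by both substitutions.

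The arrangement of the libraries bears on every value that follows. In the deposited table the G34R columns stand with one set of WT columns and the G34V columns with another, and the animal numbers fall into runs in which G34R and G34V never occur together. The labels give no batch. The share of counts from mitochondrial protein-coding genes was 0.886 to 0.984% in the G34R libraries and 1.12 to 1.23% in the G34V libraries. It was 0.933% and 1.27% in the 2 libraries of the same WT animal, of which one stands with the G34R columns and the other with the G34V columns. This is 1 pair of libraries, and the 49 genes were chosen for a large difference between G34R and G34V, so that the pair is given as a description. The difference between its 2 libraries had the direction of the difference between G34R and G34V in 26 of the 49 genes. Its median size was 0.10 on the log2 scale over the 49 genes and 0.14 over all genes tested.

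With the column sets as a block in the fit, 5 genes passed (0.0234%), Gfap, Rpl26, Gpr179, Rec8 and A830036E02Rik. With a block for each run of animal numbers, 4 genes passed (0.0188%), Gfap, Rpl26, Gpr179 and Ctss. With libraries split by their mitochondrial share, 11 passed (0.0515%), of which 8 are among the 49, Gfap, Rpl26, Gpr179, Rec8, A830036E02Rik and Krt12 among them. All 49 genes kept their direction in the first 2 of these fits, at a median of 93.0% and 92.2% of the unblocked difference, and in the third. The column-set and mitochondrial-share fits took the 15 libraries at 10 weeks without summing. The 2 libraries of 1 WT animal counted there as if from separate animals, which the p-values of these fits do not allow for. For genes not named as passing with a block, the call described below was made without one. When each of the 6 animals was left out in turn, 10 of the 49 genes passed in every fit, among them Gfap, Hspb8, Rpl26, Gpr179, AA465934, Rec8, Utp18, A830036E02Rik and Krt12. Among the remaining 39, 19 passed in 2 to 5 of the 6 fits, 19 in 1 fit and 1 in none, with adjusted p of up to 0.314. Plek, Fcer1g, C1qc, Lyz2 and Itgax passed only in the fit without G34V replicate 3. Only 2 of the 17 genes of degree passed in every fit. Of the 49 genes, 14, 20 and 23 were still called without G34R replicates 1, 2 and 3, and 13, 17 and 45 without G34V replicates 1, 2 and 3. Over all genes 13 to 129 were called, with the 129 reached without G34V replicate 3. In 48 genes the direction held in all 6 fits, and the other gene, the row named Gbp2b, was below the count filter in 1 of them. The ranges of the 2 groups were apart in all 49 genes, so leaving out 1 animal could hardly reverse a direction.

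**Figure D2:**
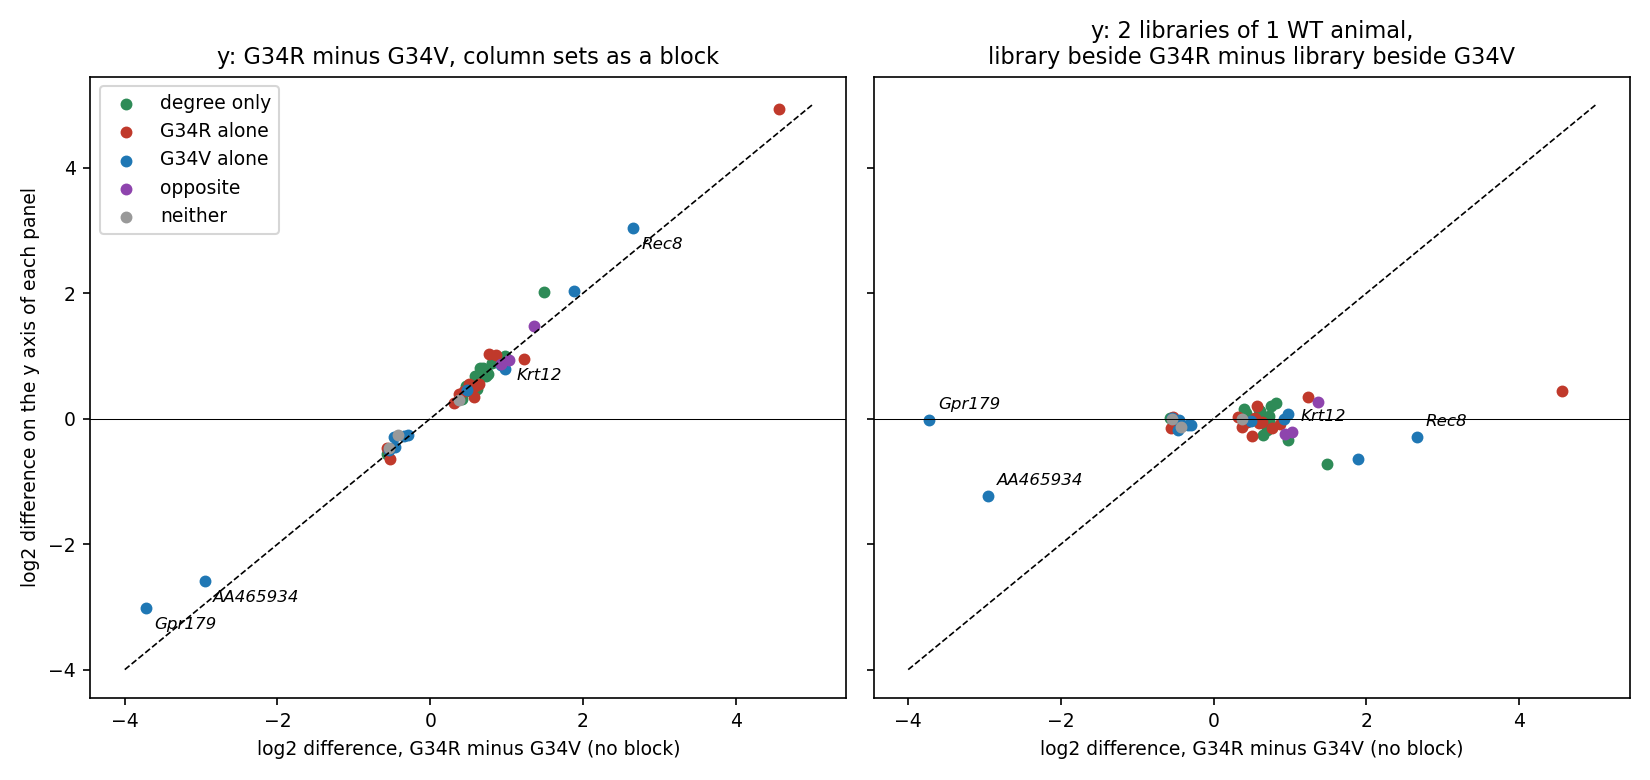
Left, the log2 difference of each of the 49 genes between G34R and G34V with the column sets as a block, against the difference without a block; right, the difference between the 2 libraries of 1 WT animal against the same horizontal axis. The left points follow the dashed line of equality, and the right points lie near 0 except for AA465934 and a few others.

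The difference of degree was led by Gfap, the intermediate filament protein of astrocytes and the gene most used to mark their reaction. Gfap was at 464, 457 and 431 CPM in G34R replicates 1 to 3, at 214, 220 and 251 CPM in G34V replicates 1 to 3, at 174 and 189 CPM in the 2 G34W animals and at 113 to 143 CPM (median 128) in WT. The G34R, G34V and WT ranges were all apart. The log2 difference between G34R and G34V was 0.98 ± 0.09 (SE, adjusted p = 1.8e-05), and it was 1.0 with the column sets as a block (adjusted p = 0.0113) and 0.80 with the number runs as a block (adjusted p = 0.0115). Against WT, Gfap rose by 1.82 in G34R and by 0.84 in G34V on the log2 scale. In the 2 libraries of the same WT animal it was at 93.8 CPM beside the G34R columns and at 119 CPM beside the G34V columns, which is the opposite direction.

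Serpina3n, a secreted protease inhibitor of reactive astrocytes, was at 29.9, 27.8 and 27.3 CPM in G34R, at 19.4, 14.7 and 16.2 CPM in G34V and at 9.50 to 12.9 CPM in WT. It differed by 0.76 ± 0.13 (SE, adjusted p = 0.0208). Slc14a1, a urea transporter of astrocytes, was at 18.6, 19.3 and 21.2 CPM in G34R and at 11.6, 12.3 and 13.7 CPM in G34V, above the WT range of 7.97 to 10.6 CPM (difference 0.65, adjusted p = 0.0211). In these 2 genes, too, the 3 groups stood in the order G34R, G34V, WT with no overlap. Over the list of reactive astrocyte genes, 2 of 22 tested genes were higher in G34R and none was lower (1 to 3 higher with 1 animal left out, the 3 without G34V replicate 3), and the median difference was 0.40 against 0.00 over all tested genes. The list did not move as one: 16 of the 22 estimates were higher in G34R, and they ran from -1.49 to 2.18. Ggta1, the third of that list by p, was at 7.98, 8.20 and 8.04 CPM in G34R and at 4.20, 4.47 and 5.22 CPM in G34V and missed the threshold (difference 0.80, adjusted p = 0.0561). Markers of resting astrocytes did not pass in any case: 0 of 17 were called, with a median of 0.06, and their summed level was 6264 to 6607 CPM in G34R and 6455 to 6515 CPM in G34V. Aqp4, the astrocyte water channel and first of them by p, differed by 0.31 (adjusted p = 0.308).

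Of the 17 genes, 8 stand in the lists for microglia, phagocytosis or complement. Cd68, a lysosomal glycoprotein of macrophages and microglia, was at 18.0, 15.5 and 16.9 CPM in G34R, at 11.4, 8.63 and 10.3 CPM in G34V, at 8.29 and 7.31 CPM in G34W and at 4.58 to 5.39 CPM in WT. It differed by 0.73 ± 0.11 (SE, adjusted p = 0.00868). Ctss, the lysosomal protease cathepsin S, was at 160, 131 and 132 CPM in G34R, at 86.5, 85.3 and 108 CPM in G34V and at 47.7 to 57.9 CPM in WT (difference 0.59, adjusted p = 0.0211), and the difference was 0.74 with the number runs as a block (adjusted p = 0.0386), 0.68 with the column sets (adjusted p = 0.413) and 0.60 with the mitochondrial share sets (adjusted p = 0.319). For both genes, every G34R animal lay above every G34V animal and every G34V animal above every WT animal.

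Lyz2, which encodes lysozyme, was at 30.4, 23.4 and 22.5 CPM in G34R, at 12.4, 13.8 and 17.2 CPM in G34V and at 5.09 to 6.94 CPM in WT (difference 0.82, adjusted p = 0.0398). Laptm5, a lysosomal membrane protein of blood-derived and microglial cells, was at 39.2, 34.6 and 36.3 CPM in G34R, at 25.0, 25.9 and 28.8 CPM in G34V and at 19.2 to 22.3 CPM in WT (difference 0.46, adjusted p = 0.0142). Itgax, the integrin CD11c that is switched on in activated microglia, had the largest difference of the 17: it was at 5.15, 4.95 and 4.43 CPM in G34R, at 1.97, 1.08 and 2.14 CPM in G34V and at 0.131 to 0.404 CPM in WT (difference 1.49 ± 0.29, SE, adjusted p = 0.0436). Its difference from WT was 4.45 in G34R and 2.97 in G34V on the log2 scale. C1qc, a chain of the complement component C1q, was at 76.8, 64.2 and 61.7 CPM in G34R, at 43.0, 39.0 and 50.9 CPM in G34V and at 25.8 to 32.1 CPM in WT (difference 0.61, adjusted p = 0.0353). These 4 genes repeat the order G34R, G34V, WT of Cd68 without overlap. The place of G34W varied, and for Laptm5 it was at 20.9 and 19.5 CPM, within the WT range. G34W passed against WT in 8 of the 17 genes of degree, each in the same direction as G34R and G34V.

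Fcer1g, the signalling chain of Fc receptors, differed by 0.69 (adjusted p = 0.0301), Plek, a phosphoprotein of blood-derived cells, by 0.40 (adjusted p = 0.0142), and Slco2b1, an organic anion transporter, by 0.42 (adjusted p = 0.0239). Of the genes called between G34R and G34V, 13 were raised by both substitutions, and in all 13 G34R stood farther from WT. The G34V change was 39.3 to 66.6% of the G34R change on the log2 scale, with a median of 45.8%. Passing the test between G34R and G34V leaves out genes with nearly equal changes. The percentages therefore describe these 13 genes and not all genes raised by both substitutions. Microglial markers moved with these genes: the summed level of the 15 homeostatic microglia genes was 715, 656 and 653 CPM in G34R, 565, 512 and 622 CPM in G34V and 442 to 478 CPM in WT, and its part in the differences above was not tested.

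**Figure D3:**
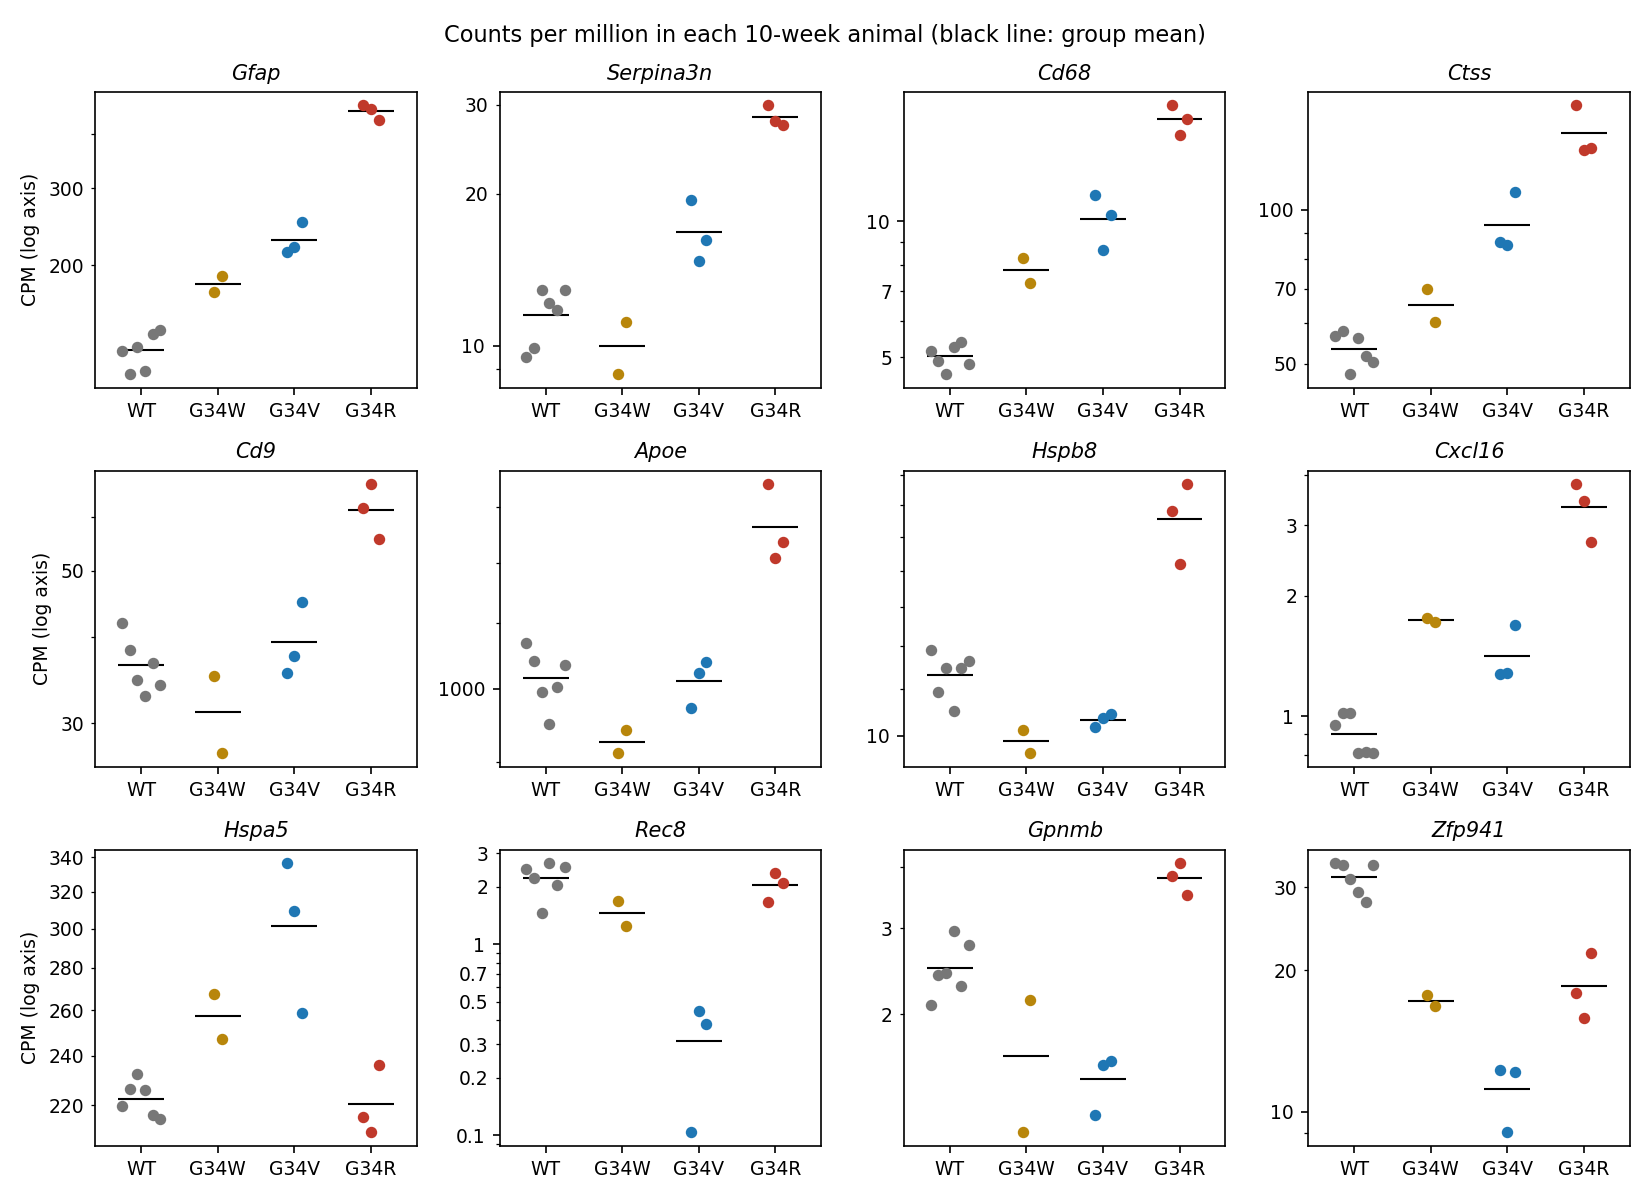
CPM of 12 genes in each 10-week animal on log axes, with group means as black lines. Gfap, Serpina3n, Cd68 and Ctss step from WT to G34V to G34R; Cd9, Apoe and Hspb8 are raised in G34R with G34V at or slightly below the WT level or overlapping it; Hspa5 and Rec8 depart from WT in G34V; Gpnmb lies above WT in G34R and below it in G34V; Zfp941 is lowest in G34V.

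The other 4 genes of degree were lower than WT in both groups, and in 3 of them G34V was the farther one. Zfp941, a zinc finger gene, was at 17.9, 15.8 and 21.8 CPM in G34R, at 12.3, 9.05 and 12.2 CPM in G34V and at 28.0 to 33.7 CPM in WT (difference 0.73, adjusted p = 0.019). Il17ra, a subunit of the interleukin-17 receptor, was at 11.4, 12.5 and 12.5 CPM in G34R, at 7.65, 8.07 and 8.28 CPM in G34V and at 15 to 20.7 CPM in WT (difference 0.60, adjusted p = 0.0211). Minar2, a neuronal membrane protein, went the other way: it was at 3.40, 3.51 and 3.12 CPM in G34R, at 5.19, 4.47 and 5.22 CPM in G34V, at 7.49 and 6.59 CPM in G34W and at 15.5 to 17.4 CPM in WT. It was thus lowest in G34R (difference -0.57, adjusted p = 0.0211), with a fall of 2.29 against WT in G34R and of 1.72 in G34V on the log2 scale.

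In 14 genes G34R differed from WT and G34V did not pass against WT; 12 of them were higher in G34R than in G34V and 2 were lower. Hspb8, a small heat shock protein that works with the autophagy machinery, was at 15.8, 14.2 and 16.7 CPM in G34R, at 10.2, 10.4 and 10.5 CPM in G34V and at 10.5 to 11.9 CPM in WT (difference 0.59 ± 0.09, SE, adjusted p = 0.00498). Cd9, a tetraspanin of activated microglia, was at 61.8, 66.8 and 55.6 CPM in G34R and at 35.5, 37.5 and 45.1 CPM in G34V, and WT lay at 32.9 to 41.9 CPM (difference 0.64, adjusted p = 0.0211). Apoe, the main lipid carrier of the brain, was at 1343, 1208 and 1236 CPM in G34R and at 972, 1024 and 1040 CPM in G34V, within the WT range of 951 to 1069 CPM (difference 0.32, adjusted p = 0.0311). In Cd9 and Apoe the G34V and WT animals overlapped, and the 3 G34R animals stood above both.

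Ctsz, the protease cathepsin Z, was at 56.2, 48.3 and 50.7 CPM in G34R and at 33.2, 32.7 and 40.3 CPM in G34V, against 27.8 to 33.1 CPM in WT (difference 0.55, adjusted p = 0.0134). Cxcl16, a chemokine and scavenger receptor, was at 3.79, 3.45 and 2.72 CPM in G34R, at 1.27, 1.28 and 1.69 CPM in G34V and at 0.808 to 1.02 CPM in WT (difference 1.23, adjusted p = 0.0142). For Cxcl16 the G34V animals lay above the WT range although the test against WT was missed (log2 change 0.64, adjusted p = 0.057), so its place outside the genes of degree rests on the threshold. Vsir, an immune checkpoint receptor of myeloid cells, differed by 0.44 (adjusted p = 0.0253). Its G34V animals, at 31.5 to 32.8 CPM, also lay above the WT range of 25.5 to 30.3 CPM without passing (adjusted p = 0.155). Parp3, a DNA repair enzyme of the ADP-ribosyl transferase family, differed by 0.87 (adjusted p = 0.0445) and lost the call whichever animal was left out, with adjusted p of up to 0.229.

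Other genes of this class encode neuronal or secreted proteins. Brinp3, a secreted neural protein, was at 47.7, 47.7 and 52.9 CPM in G34R and at 29.9, 35.4 and 34.5 CPM in G34V (difference 0.57, adjusted p = 0.0175). Pcdh11x, a protocadherin on the X chromosome, differed by 0.37 (adjusted p = 0.0217), and Apcdd1, an inhibitor of Wnt signalling, by 0.51 (adjusted p = 0.0353). The 2 genes that were lower in G34R were Clk1, a kinase of splicing factors, at 24.1, 19 and 21.8 CPM in G34R and 30.2, 32.7 and 33.2 CPM in G34V (difference -0.56, adjusted p = 0.0211), and Rab26, a vesicle GTPase, at 10.8, 10.6 and 8.88 CPM in G34R and 15.9, 12.7 and 15.2 CPM in G34V (difference -0.53, adjusted p = 0.0445). Rab26 was at 15.9 to 19.5 CPM in WT. Its G34V animals all lay below that range, the highest only just, without passing the test against WT (adjusted p = 0.06). As for Cxcl16, its place outside the genes of degree rests on the threshold. The last member is the row that the deposited table names Gbp2b (ENSMUSG00000028269), a guanylate-binding protein of a family of near-identical copies. It was at 3.27, 0.226 and 2.10 CPM in G34R and at 0.104, 0.0674 and 0.0642 CPM in G34V. The identifier is not in GENCODE M21, which gives that symbol to another gene, and the G34R animals differed from each other more than G34R replicate 2 differed from G34V, so the gene behind this row and its fold are uncertain.

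The 12 genes that differed from WT in G34V alone were of other kinds. Hspa5 (GRCm38 chromosome 2, 34771970 to 34777547), the main chaperone of the endoplasmic reticulum, was at 336, 310 and 259 CPM in G34V replicates 1 to 3 and at 216, 210 and 236 CPM in G34R replicates 1 to 3, against 215 to 232 CPM in WT. The 2 G34W animals were at 267 and 247 CPM. The G34V animals lay above all G34R and WT animals, and G34R overlapped WT (difference -0.45 ± 0.08, SE, adjusted p = 0.0211). Among the 22 tested genes of the list for endoplasmic reticulum stress, Hspa5 was lower in G34R and no other passed, and the list's median difference was -0.05. Xbp1, the transcription factor of that response and second by p, was at 70.8, 61.4 and 66.8 CPM in G34R and at 88.5, 86.6 and 76.2 CPM in G34V (difference -0.34, 95% interval -0.50 to -0.17, adjusted p = 0.101). With 1 animal left out, 0 to 2 of the list were called, the 2 without G34V replicate 3. Against WT, 7 genes of the list were higher and 2 lower in G34V, and 1 was higher and 2 lower in G34R.

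The promoter of Hspa5 is shown because the endoplasmic reticulum stress element is the textbook control site of this gene. The element was searched as CCAAT and CCACG with 9 bases between them, on both strands, in the 250 bases before each start in the RefSeq promoter table (GRCm38.p6). In Hspa5 it lies 65 bases before the start that RefSeq gives, which is downstream of the gene start of GENCODE M21 printed above, at chr2:34772020-34772048 on the plus strand, with the match in capitals.
Hspa5: cttcaCCAATCGGAGGCCTCCACGacggg
The table held 35 of the 49 genes, and Hspa5 was the only one of them with this match, against 0.13% of 27025 promoters. The interferon-stimulated response element, searched as GAAA and GAAA with 2 bases between, was in 2 of the 35 (3.46% of all promoters), of which Ctss carries it 21 bases before its start, at chr3:95526755-95526784 on the plus strand.
Ctss: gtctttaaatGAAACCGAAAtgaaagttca
A PU.1 site, written GAGGAAGT, was in 1 of the 35 (2.79% of all promoters), and an AP-1 site, TGACTCA, in 3 (5.16%). The motifs were chosen with the called genes known, and a match describes letters and not binding.

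Rec8, a meiotic cohesin subunit, was at 0.104, 0.449 and 0.385 CPM in G34V, at 1.67, 2.38 and 2.10 CPM in G34R, at 1.68 and 1.24 CPM in G34W and at 1.47 to 2.66 CPM in WT. The G34V animals lay below all others, and the difference was 2.66 ± 0.35 (SE, adjusted p = 0.00229), 3.04 with the column sets as a block (adjusted p = 0.0314) and 3.01 with the number runs as a block (adjusted p = 0.146). It was the only one of 13 tested germline genes that passed. Fbxo27, an F-box protein that recognises glycoproteins, was at 2.21, 2.70 and 3.06 CPM in G34V and at 5.02, 5.40 and 5.32 CPM in G34R (difference 0.98, adjusted p = 0.0085), with WT at 5.54 to 7.41 CPM and G34W at 2.90 and 2.88 CPM. Its 3 G34R animals also lay below the WT range without passing (adjusted p = 0.17).

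Snrnp70, a protein of the U1 splicing particle, was at 51.7, 50.3 and 49.6 CPM in G34V and at 37.1, 43.2 and 39.6 CPM in G34R (difference -0.34, adjusted p = 0.0211). Nrsn1, a neuronal vesicle protein, was at 227, 223 and 215 CPM in G34V, at 187, 181 and 176 CPM in G34R and at 160 to 174 CPM in WT (difference -0.29, adjusted p = 0.0237). Its G34R animals thus also lay above the WT range, without passing the test against WT (adjusted p = 0.14). Rbm12b2, an RNA-binding protein, differed by -0.47 (adjusted p = 0.0211), and Pmp22, a membrane protein best known from peripheral myelin, by 0.48 (adjusted p = 0.0484).

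Genes on chromosome 11 were 12 of the 49 (24.5%), while 8.22% of the tested genes lie there. Put the other way, 0.686% of the tested genes on chromosome 11 were called and 0.189% of those elsewhere. The 12 are Plek, Pmp22, Rpl26, Cd68, Cxcl16, AA465934, Utp18, Gm9796, Gpr179, Krt12, A830036E02Rik and Gfap. H3f3a is on chromosome 1 and H3f3b on chromosome 11. Of the 10 genes that passed in every fit with an animal left out, 7 are on chromosome 11. Krt12 and A830036E02Rik overlap each other and are counted as 2 genes in the 12, the 7 and the 3 genes with opposite changes.

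Rpl26 (chromosome 11, 68901583 to 68906989), a protein of the large ribosomal subunit, was at 42.7, 41.9 and 42.9 CPM in G34V, at 86.4, 76.7 and 78.8 CPM in G34R, at 81.2 and 67.2 CPM in G34W and at 74.4 to 85.0 CPM in WT (difference 0.92 ± 0.07, SE, adjusted p = 3e-06). The 2 libraries of the same WT animal gave 76.4 and 76.4 CPM. Gpr179 (97332109 to 97352077), an orphan receptor known from the retina, was at 8.54, 7.77 and 7.74 CPM in G34V, at 0.810, 0.396 and 0.544 CPM in G34R and at 0.336 to 0.831 CPM in WT (difference -3.72 ± 0.29, SE, adjusted p = 3e-06). These 2 genes had the lowest adjusted p of all genes tested. In both, the 3 G34V animals were close to each other and apart from all G34R, G34W and WT animals.

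AA465934 (83291699 to 83294632), a transcript with no coding annotation, was at 7.45, 7.12 and 6.27 CPM in G34V and at 0.459, 1.30 and 1.04 CPM in G34R (difference -2.95, adjusted p = 0.000171), with WT at 0.462 to 0.709 CPM. The 2 libraries of the same WT animal also differed in that direction, by -1.23 on the log2 scale at 0.267 and 0.694 CPM. Utp18 (93859243 to 93885766), a factor of small ribosomal subunit assembly, was at 26.5, 28.0 and 29.0 CPM in G34V and at 18.0, 20.7 and 18.9 CPM in G34R (difference -0.54, adjusted p = 0.00292), with WT at 18.8 to 20.4 CPM. Gm9796 (95696894 to 95699143), a long intergenic RNA, was at 0.234, 0.315 and 0.257 CPM in G34V and at 0.810, 1.22 and 1.01 CPM in G34R (difference 1.89, adjusted p = 0.0134). WT lay at 0.584 to 0.773 CPM, and the G34R animals were above that range without passing the test against WT (adjusted p = 0.242).

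Krt12, a keratin of the cornea, and A830036E02Rik, annotated as its antisense RNA, overlap on chromosome 11 (99415666 to 99422259 and 99416956 to 99425497). The strand setting of the counting is not given in the sources used here, so reads of the 2 genes cannot be told apart and they may be 1 observation. Krt12 was at 24.4, 25.9 and 20.7 CPM in G34R, at 12.3, 10.3 and 12.1 CPM in G34V and at 15 to 19.3 CPM in WT (difference 1.03 ± 0.12, SE, adjusted p = 0.000311). A830036E02Rik was at 27.7, 27.9 and 24.9 CPM in G34R, at 15, 13.5 and 13.7 CPM in G34V and at 18.7 to 22.9 CPM in WT (difference 0.93 ± 0.09, SE, adjusted p = 2.19e-05). Both passed above WT in G34R and below WT in G34V.

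Several of these genes varied widely between animals of 1 genotype at day 7, where no G34V animal was sequenced. Gpr179 was at 0.872, 7.02, 1.15 and 17.3 CPM in the 4 G34R animals and at 3.65, 0.805, 0.650 and 0.706 CPM in the 4 WT animals at day 7. Rpl26 was at 64.3, 14.6, 68.1 and 41.1 CPM in G34R and at 14.8, 69.0, 46.2 and 42.7 CPM in WT at that age. AA465934 was at 1.33, 12.1, 2.17 and 11 CPM in G34R and at 6.10, 0.865, 1.18 and 6.74 CPM in WT at day 7. Both genotypes thus held high and low animals for each of the 3 genes. A830036E02Rik was at 22.1, 1.07, 22.4 and 0.697 CPM in G34R and at 8.06, 20.5, 17.5 and 16.8 CPM in WT at day 7, and Krt12 at 11.4, 1.39, 11.2 and 1.43 CPM in G34R and at 4.71, 9.50, 9.42 and 8.35 CPM in WT at day 7. G34R replicates 2 and 4 at day 7 were low for Krt12 and its antisense RNA and high for Gpr179 and AA465934. What sets these levels was not tested.

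**Figure D4:**
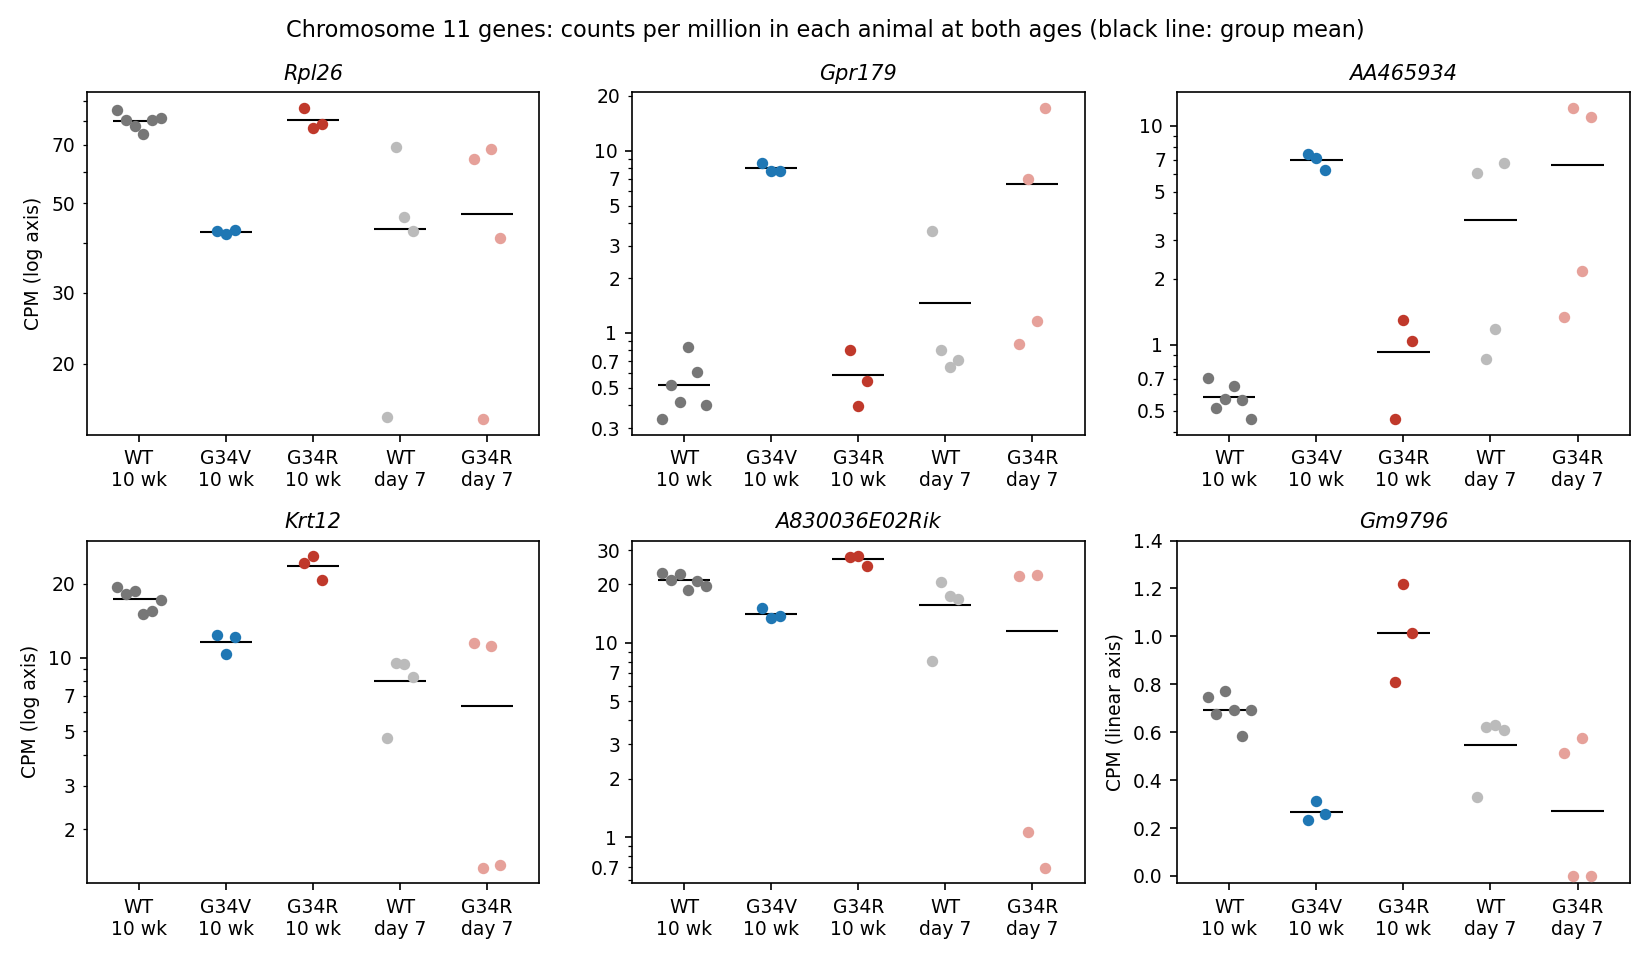
CPM of 6 genes of chromosome 11 in each animal at 10 weeks and at day 7, on log axes except for Gm9796, with group means as black lines. At 10 weeks the 3 G34V animals lie together and apart from G34R and WT. At day 7 the 4 G34R animals spread widely in each gene, and the 4 WT animals also spread widely in Rpl26, Gpr179 and AA465934.

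Gpnmb, a transmembrane glycoprotein raised in lipid-laden macrophages, was the third gene with opposite changes. It was at 3.83, 4.07 and 3.51 CPM in G34R, at 1.25, 1.57 and 1.60 CPM in G34V, at 1.15 and 2.14 CPM in G34W and at 2.09 to 2.96 CPM in WT. The 3 ranges of G34R, WT and G34V were apart, and the difference was 1.36 ± 0.21 (SE, adjusted p = 0.0097), with changes against WT of 0.61 in G34R (adjusted p = 0.045) and -0.75 in G34V (adjusted p = 0.032). Without G34V replicate 1 the adjusted p between the groups was 0.0799. In the 3 genes that passed neither test against WT, the G34R and G34V means lay on either side of the WT mean, but single animals overlapped WT. P4ha1, a collagen prolyl hydroxylase, was at 41.5, 37.0 and 40.7 CPM in G34R and at 62.1, 62.0 and 49.2 CPM in G34V (difference -0.54, adjusted p = 0.0276). Its WT range was 43.0 to 55.2 CPM and held the third G34V animal. Ddx17, an RNA helicase, was at 130, 114 and 138 CPM in G34R and at 183, 180 and 150 CPM in G34V (difference -0.43, adjusted p = 0.0484). Both groups overlapped its WT range of 137 to 161 CPM. Dck, a kinase of the nucleoside salvage pathway, was at 22.8, 25.3 and 24.9 CPM in G34R and at 17.6, 19.1 and 19.5 CPM in G34V (difference 0.37, adjusted p = 0.0474). Its WT range was 20.9 to 24.0 CPM, which G34R overlapped. For P4ha1 and Ddx17 the third G34V animal lay nearest to G34R.

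Calls were also counted in each gene list, beside 0.174% of all tested genes higher and 0.0564% lower in G34R. Of the disease-associated microglia genes, 6 of 22 were higher in G34R and none was lower, the 6 being Cd68, Gpnmb, Ctsz, Cd9, Apoe and Itgax. Its median difference was 0.66, with median changes against WT of 1.01 in G34R and 0.28 in G34V. Against WT, 17 of the 22 were higher in G34R, and 10 were higher and 1 lower in G34V. Its summed level was 2755, 2516 and 2506 CPM in G34R, 2068, 2042 and 2212 CPM in G34V and 1911 to 2078 CPM in WT. In this sum, of which Apoe alone was 1343, 1208 and 1236 CPM in G34R and 972, 1024 and 1040 CPM in G34V, G34R stood apart from both other groups and G34V overlapped WT. With 1 animal left out, 1 to 8 of the 22 were called, the 8 without G34V replicate 3. Of phagocytosis and lysosome genes, 4 of 21 were higher in G34R (Laptm5, Ctss, Fcer1g and Lyz2), with a median of 0.31. None of the 21 was called without G34R replicate 1, G34V replicate 1 or G34V replicate 2, 2 without G34R replicate 2 or 3 and 4 without G34V replicate 3.

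Of the 15 homeostatic microglia genes, 1 passed and 14 did not, and the median was 0.15, or 0.27 with the number runs as a block. Without G34V replicate 3, 4 of the 15 were called, and with any other animal left out none was. Cx3cr1, the fractalkine receptor, was at 75.1, 73.9 and 64.9 CPM in G34R and at 58.2, 45.7 and 62.0 CPM in G34V (difference 0.37, adjusted p = 0.123), and Gpr34, a microglial receptor, differed by 0.47 (adjusted p = 0.147). In the complement list C1qc passed, 18 others did not, and the median was 0.33. Without G34V replicate 3, 5 of the 19 were called, and with any other animal left out none was. Clu, clusterin, was at 853, 828 and 820 CPM in G34R and at 663, 646 and 677 CPM in G34V with ranges apart (difference 0.33, adjusted p = 0.0618), and C3ar1, a complement receptor, differed by 0.86 (adjusted p = 0.0911). Cxcl16 was the only one of 18 cytokine, chemokine and receptor genes that passed (median 0.41), and was called without G34R replicate 3 or G34V replicate 3 but in no other fit with an animal left out. Tlr2, a microbial pattern receptor, differed by 0.63 (adjusted p = 0.289).

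Markers of cells from outside the brain were low in both groups. The 15 genes for infiltrating leukocytes summed to 6.06 to 7.33 CPM in G34R, 6.56 to 7.64 CPM in G34V and 5.46 to 11.1 CPM in WT, and 5 of them were at 0 in all G34R animals and 2 in all G34V animals. The 8 genes of macrophages at the brain's borders summed to 14 to 17.2 CPM in G34R, 11.3 to 17.3 CPM in G34V and 11.2 to 14.8 CPM in WT. Of the 5 and 8 of these genes that could be tested, none passed.

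Interferon response genes had the largest median change against WT of the 39 lists in both substitutions, and none was called between them. None of 27 passed, 14 had an unadjusted p under 0.05, and all 27 estimates were higher in G34R, with a median of 0.57. Against WT, 22 of the 27 rose in G34R and 5 in G34V, with medians of 1.42 and 0.79. The summed level was 243, 193 and 199 CPM in G34R, 116, 138 and 209 CPM in G34V and 105 to 117 CPM in WT. G34V replicate 3 lay within the G34R range, replicate 1 within the WT range and replicate 2 between the 2. Without G34V replicate 3, 8 of the 27 interferon genes and 4 of the 15 class I genes were called higher in G34R, and with any other animal left out none was. Trim30a, an interferon-induced ubiquitin ligase and first of the list by p, was at 5.83, 4.50 and 5.09 CPM in G34R and at 2.26, 2.29 and 3.85 CPM in G34V (difference 0.88, 95% interval 0.40 to 1.35, adjusted p = 0.143). Lgals3bp, an interferon-induced secreted glycoprotein, was at 25.9, 20.1 and 20.4 CPM in G34R and at 11.2, 11.7 and 20.3 CPM in G34V (difference 0.62, adjusted p = 0.224). In both, as in the sum, the third G34V animal was the closest to G34R. Of the class I antigen presentation genes, 0 of 15 passed, 5 had an unadjusted p under 0.05, and B2m, the shared light chain, was at 91.0, 92.6 and 85.8 CPM in G34R and at 52.8, 63.4 and 80.1 CPM in G34V (difference 0.46, adjusted p = 0.15).

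**Figure D5:**
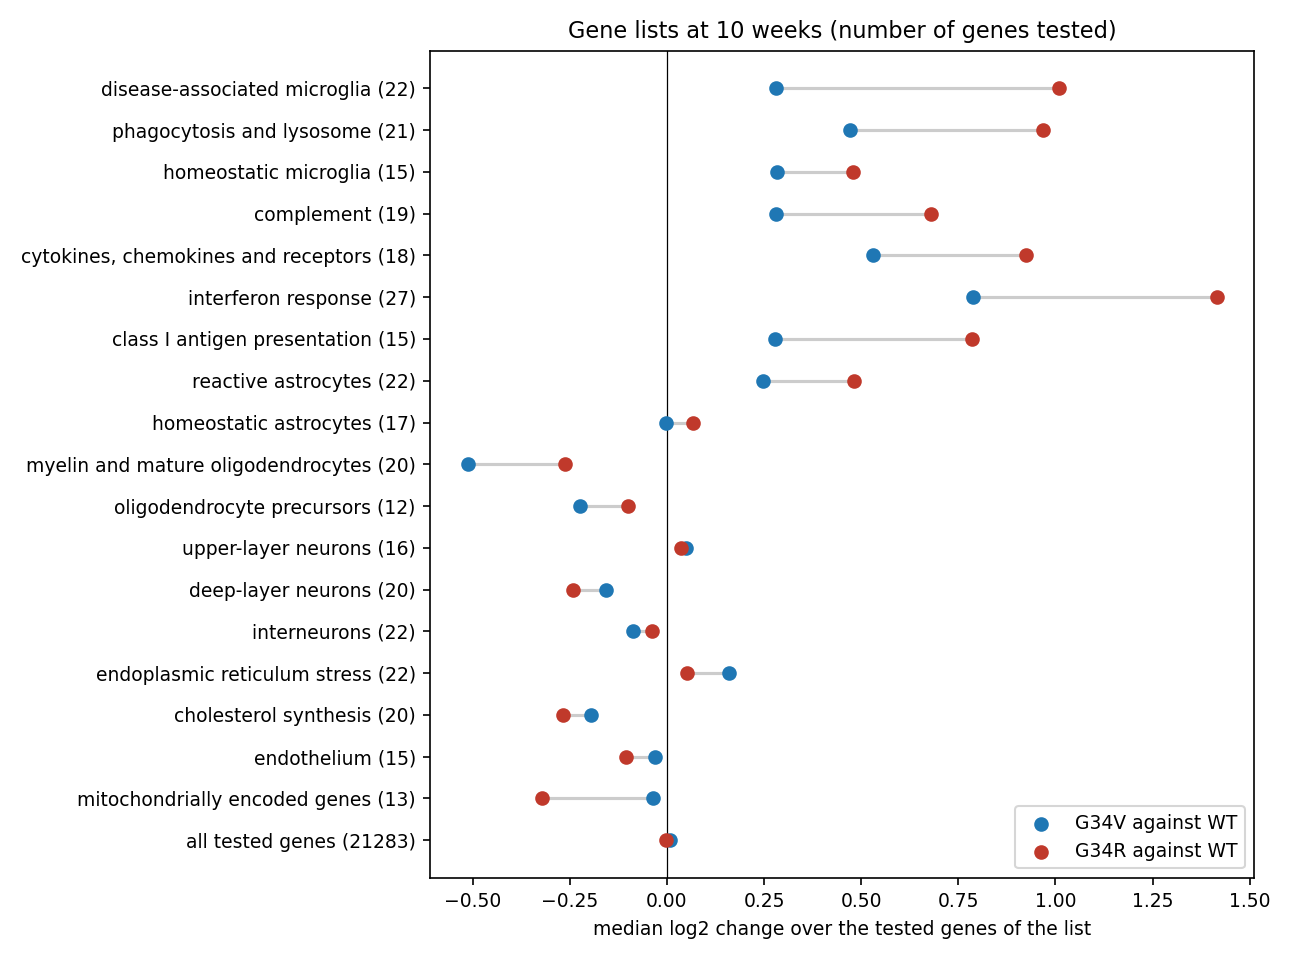
Median log2 change against WT in G34V and in G34R over the tested genes of 18 lists and of all tested genes, with the number of genes tested; both use the same 6 WT animals. The microglial, interferon and reactive astrocyte lists lie to the right with G34R beyond G34V, and the myelin list lies to the left with G34V beyond G34R.

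Of the myelin genes, none of 20 passed between the substitutions, 7 had an unadjusted p under 0.05, and all 20 estimates were higher in G34R, with a median of 0.28. Against WT, 7 were lower in G34V and 1 in G34R, with medians of -0.51 and -0.26. The summed level was 4736, 5210 and 4077 CPM in G34R, 3312, 4342 and 4385 CPM in G34V and 5252 to 6843 CPM in WT. The 2 groups overlapped, and the highest G34R animal, at 5210 CPM, lay close to the lowest WT animal, at 5252 CPM. Pllp, a myelin proteolipid and first of the list by p, was at 51.0, 51.7 and 45.3 CPM in G34R and at 28.9, 40.1 and 40.6 CPM in G34V (difference 0.43, adjusted p = 0.319), and Ugt8a, an enzyme of myelin galactolipid synthesis, differed by 0.36 (adjusted p = 0.329).

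Lists of upper-layer neurons, deep-layer neurons, interneurons, synaptic genes, axonal cytoskeleton, neuropeptides, endothelium, mural cells, imprinted genes, and DNA methylation and H3.3 chromatin held no called gene between the substitutions, and their medians lay between -0.09 and 0.10. Without G34R replicate 1, 1 deep-layer gene was called. Immediate early genes held none of 19, with a median of -0.17, estimates from -1.09 to 1.55 and 7 of 19 higher in G34R. Without G34V replicate 3, 1 of them was called lower in G34R. Homer1, one of them and a synaptic scaffold protein, was at 174, 189 and 180 CPM in G34R and at 291, 295 and 191 CPM in G34V (difference -0.52, adjusted p = 0.165). Cholesterol synthesis genes held none of 20, with a median of -0.07. A value that misses the threshold with 3 animals in each group does not show that the substitutions act alike. For mitochondrially encoded genes none of 13 passed, and the median of -0.31 stands beside -0.55 between the 2 libraries of the same WT animal and 0.16 with the column sets as a block, so this list's direction turns with the block. Choroid plexus genes, which mark tissue from the ventricles, held none of 12 and summed to 1275, 1227 and 877 CPM in G34R and 1318, 614 and 1872 CPM in G34V.

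Day 7 gave a measure of G34R from animals that enter no 10-week comparison. All 49 genes were tested there, and 2 of them (4.08%) differed between G34R and WT at day 7 in the same sense as between G34R and G34V at 10 weeks, against 63 of 20853 genes (0.302%, with 0.11% higher and 0.192% lower in G34R). Laptm5 was at 16.6, 17.2, 14 and 15.8 CPM in G34R and at 10.9, 10.3, 11.9 and 10.3 CPM in WT at day 7 (log2 change 0.56, adjusted p = 0.0334). Minar2 was at 13.2, 14.7, 12 and 10.9 CPM in G34R and at 22.2, 20.7, 22.5 and 21.8 CPM in WT (log2 change -0.78, adjusted p = 0.00794). In both genes the 4 G34R animals stood apart from the 4 WT animals. Both count among the differences of degree at 10 weeks. Gfap, which led those differences, was at 105, 88.0, 103 and 92.1 CPM in G34R and at 98.9, 76.0, 139 and 121 CPM in WT at day 7, with overlapping groups (log2 change -0.13, adjusted p = 0.924). Of the 49 genes, 28 had a day-7 estimate in the same sense as the 10-week difference, which is close to an even split. The same share over all tested genes was not taken. When each day-7 animal was left out, 0 to 3 of the 49 genes passed, with none passing without WT replicate 4.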

How the data were processed

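Cortex RNA of 23 libraries from 22 mice was analysed from a deposited table of unnormalised counts per gene (39017 genes). Per the labels, total RNA of pulverised tissue was depleted of ribosomal RNA. Per the submitters' processing notes, featureCounts 1.4.4, STAR 2.3.0e, Trimmomatic 0.32 and bedtools 2.27.1 were used with mm10. Strand setting and annotation release: not given in the sources used here. Symbols and coordinates came from GENCODE M21 (GRCm38).

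The 14 animals at 10 weeks were fitted with edgeR 4.0.16 (R 4.3.3, TMM, filterByExpr, robust quasi-likelihood), with Benjamini-Hochberg adjustment over 21283 genes and a threshold of 0.05. The 8 day-7 animals were fitted with sex as a covariate. SEs follow from the log2 difference and its quasi-likelihood F, and intervals are 95%. CPM are on 1 TMM scale over all animals, and 2 libraries of 1 animal were compared with a pseudocount of 0.05 CPM. Depth was 28414057 to 90067111 counts per library. The 6 sex-specific genes Xist, Tsix, Ddx3y, Uty, Kdm5d and Eif2s3y were left out. The scripts were tested on simulated data.

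The groups, the 39 gene lists and the tests were chosen with earlier results of these data known. Named genes were H3f3a, up to 15 per direction by size (at least 1 CPM, ranges apart), up to 8 per class and 3 per list by adjusted p. To account for every called gene, 7 outside that rule were named after their values were seen: Il17ra, Slc14a1, Slco2b1, Vsir, Apoe, Apcdd1 and Pmp22.

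Alternatives were RLE scaling, other filters, DESeq2 1.42.0, limma-voom 3.58.1, only the compared groups, mitochondrial and rRNA genes left out, libraries kept apart, blocks and animals left out. The column-set and mitochondrial-share blocks were chosen after seeing the data and were fitted to the 15 libraries at 10 weeks, not to summed animals. Some genes are not reported here by name and remain in the counts.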

Additional observations from a re-analysis of the deposited data

Results flagged for a closer look

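Among 186 groups of 4 to 6 animals (3 groups for each of 62 genes), 9 had 1 animal far from the others by Dixon's criterion, and chance alone flags about 1 in 20 groups. At day 7 the highest G34R animal was at 2.89 CPM for Rec8 and 4.40 CPM for Lgals3bp, and the lowest was at 0.516 CPM for Itgax. The highest WT animal at day 7 was at 23.6 CPM for Dck, 1.12 CPM for the row named Gbp2b, 3.65 CPM for Gpr179 and 0.928 CPM for Tlr2, and the lowest was at 0.332 CPM for Gm9796. At 10 weeks the highest WT animal was at 1.5 CPM for Tlr2. The G34R and G34V groups at 10 weeks, with 3 animals each, were too small for this criterion.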

How the results depend on the processing

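The 49 calls between G34R and G34V became 281 with DESeq2 and 209 with limma-voom, which kept 47 and 48 of the 49, and 169 with only the compared groups, which kept 44. The 17 calls of degree became 57 with DESeq2, 46 with limma-voom and 30 when classes were set by sign alone. With a block for each run of animal numbers, 4 genes were called and 2 of degree. With the column sets as a block 5 and 1 were called, and with sets split by mitochondrial share as a block 11 and 2. No paired analysis was possible because the labels give animal numbers and no shared replicate numbers. Leaving out 1 animal gave 13 to 129 calls and 3 to 19 of degree, with the lowest count of calls without G34V replicate 1 (13) and the highest without G34V replicate 3 (129); the counts were 16, 22 and 25 without G34R replicates 1, 2 and 3 and 18 without G34V replicate 2. The 2 calls at day 7 became 5 with DESeq2 and 4 with limma-voom, and 0 to 3 with 1 animal left out. RLE scaling, the filters, libraries kept apart, and mitochondrial and rRNA genes left out gave 49 to 51 calls and 17 or 18 of degree. The cause of these changes was not tested. No called gene reversed under any alternative run, which the ranges being apart made likely beforehand for the runs with 1 animal left out. Counts limit genes near 1 CPM, such as Rec8 and Gm9796, more than abundant ones.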
